A study of Komagataella pastoris with 4 samples.

Results

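The comparison described here sets Pichia pastoris cells that lack the histone acetyltransferase Gcn5 against wild-type cells, both growing on methanol. Rows of the deposited table were compared if their counts averaged 20 or more across the series' 4 libraries, which kept 5420 of 5427 rows, in 2 of the 4 libraries. Pichia pastoris is a methylotrophic yeast that can live on methanol as its only source of carbon. The Gcn5 deletion strain is a histidine auxotroph labelled as resistant to Zeocin. The wild type, GS115, is also a histidine auxotroph and carries no antibiotic resistance by its label. The Zeocin resistance is thus a difference between the strains besides Gcn5. The series also holds an Mxr1-labelled deletion and a Gal83 deletion, both Zeocin-resistant histidine auxotrophs. All strains had spent 14 h in YNBM, a minimal medium with methanol, and each gave 1 library. No difference therefore has a replicate check, and the labels do not say whether a strain was 1 clone. The series title gives the targets of Gcn5 as its question. No row is described as Mxr1, so that label was not checked and the library is called Mxr1-labelled. In the Gal83-deletion library a beta-subunit of the Snf1 kinase (gene1360) had 8 counts, against 5215 in the wild type, while a row described as the glucose repression protein GAL83 (gene161) had 5513.

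Gcn5 is the catalytic subunit of the SAGA and ADA complexes. In Saccharomyces cerevisiae it places acetyl groups on lysines of histone H3, mostly at promoters, and SAGA also helps to recruit the general transcription machinery. Growth on methanol begins in the peroxisome, where alcohol oxidase makes formaldehyde and hydrogen peroxide, and dihydroxyacetone synthase joins formaldehyde to xylulose 5-phosphate. The sugar phosphates that follow are rearranged so that xylulose 5-phosphate is remade.

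A scaled count is a read count divided by the size factor of its library, taken as the median of ratios over the 4 libraries. Ratios are log2 ratios of the Gcn5-deletion library to the wild-type library, after adding 0.5 to each scaled count, so that a negative value means lower in the deletion. Square brackets hold the exact Clopper-Pearson 95% interval, which covers counting error only. A row counts as higher or lower if the change was 2-fold or more and equality lay outside the interval. The table held 30741258 counts for the Gcn5-deletion library and 48539082 for the wild type, and the median width of the intervals was 0.18 log2 units. Counting error is therefore small beside a 2-fold change in most rows, while differences between cultures of 1 strain were not measured. Scaling by total counts instead shifted each ratio by -0.32, so calls of higher rows under log2 1.32 depend on the scaling. The median of all rows was -0.02, and -0.34 with total counts. With total counts the medians of 13 of the 37 gene groups below, all between 0 and 0.31, turned negative, and with upper-quartile factors 2 did. Group medians are therefore to be read against the median of all rows.

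The deleted gene was almost silent in its library. Its row (gene3103), described as acetylating lysines of H2B and H3, had 3 counts in the Gcn5-deletion library, against 2570 in the wild type. The log2 ratio was -8.59 [-11.04 to -7.21]. Scaled, the row stood at 3.99 in the Gcn5-deletion, 2197 in the Mxr1-labelled, 2940 in the Gal83-deletion and 1728 in the wild-type library. The deposited counts thus go with the label. The rows on either side of it in the table, chosen after their values were seen, differed little. The log2 ratios were 0.02 for gene3102, an aminohydrolase, and 0.15 for gene3104, a phosphatidylserine decarboxylase.

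Most of the transcriptome moved little. The middle 50% of rows lay between log2 -0.34 and 0.31, and 4926 rows were within 2-fold. In the Gcn5-deletion library 217 rows were higher, 4.00% of those compared, and 277 were lower, 5.11%, which makes 9.11% in either direction. At 4-fold or more 37 rows were higher and 32 lower, and at 10-fold or more 9 were higher and 2 lower. The calls were most frequent among abundant rows. Among the 542 rows with the highest mean scaled count 75 were higher and 54 lower, against 8 higher and 21 lower among the 542 rows just under the median level. Calls were also more frequent at the bottom of the range, with 33 higher and 31 lower among the 542 rows of lowest level. Of 5251 protein-coding rows 207 were higher and 272 lower, and of 156 rows of miscellaneous RNA 10 were higher and 3 lower.

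**Figure D1:**
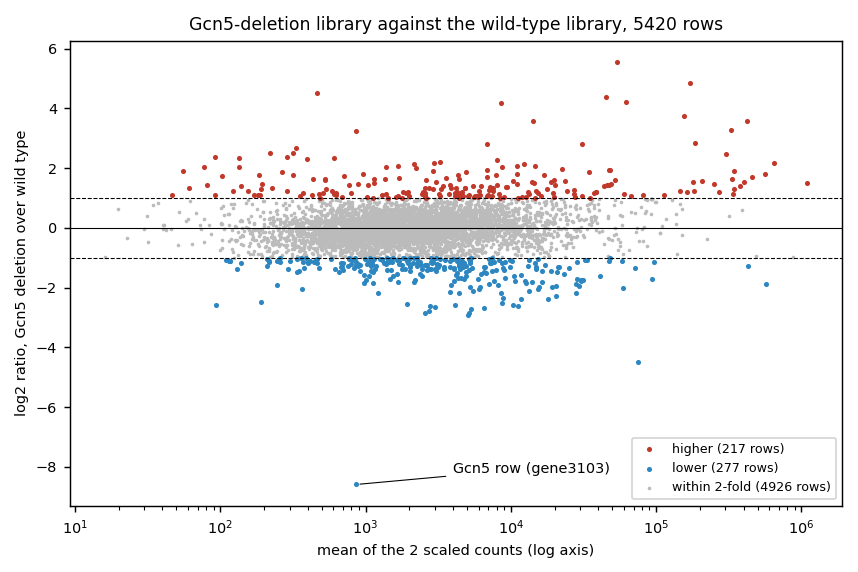
Each point is 1 of 5420 rows, with the mean of its 2 scaled counts on a log axis and the log2 ratio of the Gcn5-deletion library over the wild type on the vertical axis. Red points are the 217 higher and blue points the 277 lower rows, dashed lines mark 2-fold, and the Gcn5 row stands alone at -8.59.

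The gene groups below were collected by the product descriptions in the table, and their members' ratios are drawn together in the plot of the gene lists. Group counts of higher and lower rows are to be read against the shares of all rows, 4.00% and 5.11%. Adhesins and surface proteins lay highest, with a median of 0.84. The groups at the other end were sulfur assimilation, methanol utilisation, the vitamins riboflavin, thiamine and B6, and peroxisomes.

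**Figure D2:**
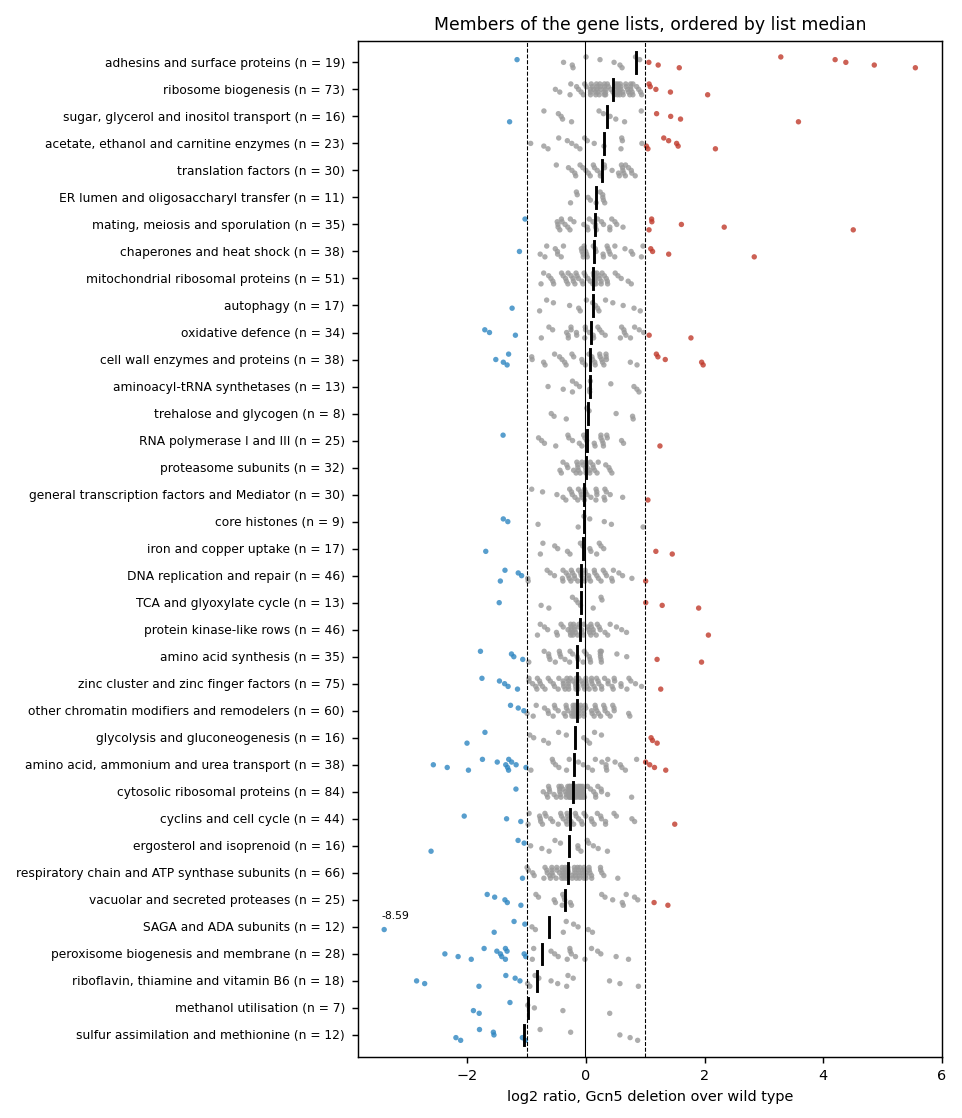
Each point is a member of 1 of 37 gene lists, placed by its log2 ratio of the Gcn5-deletion library over the wild type, and lists run down the page from the highest to the lowest median. Thick bars are list medians, from 0.84 for adhesins to -1.04 for sulfur assimilation, the solid line is the median of all rows, dashed lines mark 2-fold, and the Gcn5 row at -8.59 is drawn at the left edge.

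Of 11 measured partners of Gcn5 in SAGA and ADA, its own row left out, 3 were lower and 0 higher (5 lower with total counts), and the median was -0.38. A SAGA subunit that is absent from the related SLIK complex (gene1213) had 1211 scaled counts in the Gcn5-deletion library and 3537 in the wild type, a log2 ratio of -1.55 [-1.65 to -1.44]. The scaffold coactivator HFI1/ADA1 is spread over a pair of adjacent rows, between which reads may be split. Its row gene1593 was lower, with 661 scaled counts in the Gcn5-deletion library, 2014 in the Mxr1-labelled, 1663 in the Gal83-deletion and 1530 in the wild-type library. The adjacent row gene1594 stood at -0.85. SAGA associated factor 29 (gene804), which reads methylated histone H3, was lower at -1.03. The other 8 rows did not pass the size rule. Among them, a subunit shared by SAGA and SAGA-like complexes (gene4314) stood at -0.91, a transcription factor of ADA and SAGA (gene2193) at -0.33, and SAGA-associated factor 11 (gene1945), of the deubiquitinating module, at 0.11. The other deletion libraries were set against the same wild-type library, and there the medians of these 11 rows were 0.23 in the Mxr1-labelled and -0.11 in the Gal83-deletion library.

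Of 60 other rows for chromatin modifiers and remodelers 3 were lower and 0 higher, with a median of -0.16. That is about the share of lower rows in the whole table, 5.11%. The catalytic subunit of the NuA3 acetyltransferase (gene1904) had 517 scaled counts in the Gcn5-deletion library and 1248 in the wild type, and a SIR2-family deacetylase similar to HST2 (gene1156) had 1299 and 2681 in the same libraries. The third was a SWI/SNF family ATPase of DNA repair (gene4111), at log2 -1.14. Of 9 rows of core histones, the substrates of Gcn5, 2 were lower and 0 higher. These were the adjacent rows gene1886 and gene1887, at -1.32 and -1.39, and they stood at -3.50 each in the Mxr1-labelled and at -1.91 for gene1886 in the Gal83-deletion library. For gene1887 the Gal83-deletion library had 1392 scaled counts, against 3946 in the wild type, so both rows were lower in all 3 deletion libraries. The most abundant histone row (gene1623) had 25289 scaled counts in the Gcn5-deletion library and 12956 in the wild type, a log2 ratio of 0.96 that falls short of the size rule. For these 3 rows the table does not say which core histone they encode. Of 30 general transcription factors and Mediator subunits 1 was called, the TATA-box binding protein (gene1009), which SAGA delivers to promoters. It was at 1.05, and at 0.72 with total counts.

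Adhesins and other surface proteins were the most strongly raised group. Of 19 rows 8 were higher and 1 lower (6 and 1 with total counts), and 4 of the 8 were among the 5 highest described rows of the table. A lectin resembling Flo1 (gene1454), which makes cells clump in Saccharomyces cerevisiae, had 105673 scaled counts in the Gcn5-deletion library, 1966 in the Mxr1-labelled, 4971 in the Gal83-deletion and 2248 in the wild-type library. Over the wild type this was a log2 ratio of 5.55 [5.50 to 5.60]. GLEYA domains bind sugars on neighbouring cells. One row with such a domain (gene1655) had 333023 scaled counts in the Gcn5-deletion library, 414 in the Mxr1-labelled, 844 in the Gal83-deletion and 11453 in the wild-type library. A row described as zonadhesin (gene4334) followed the same order, with 118543 in the Gcn5-deletion, 222 in the Mxr1-labelled, 730 in the Gal83-deletion and 6442 in the wild-type library. For both rows the Gcn5-deletion library was thus above and the other deletion libraries below the wild type. Smaller increases were found for another GLEYA row (gene5425, log2 1.57), a further row of cell surface glycoprotein 1 (gene1616, 1.22) and agglutinin-like protein 3 (gene4358, 1.06). The lower member was a row named halomucin (gene1426, -1.16). Among the uncalled rows, GLEYA rows gene5420 and gene1452 were at 0.84 and 0.00, and zonadhesin rows gene2042 and gene4994 at 0.91 and -0.23. Rows gene2898 and gene1227 of cell surface glycoprotein 1 were at 0.61 and -0.38. In the Mxr1-labelled library 0 of the 19 rows were higher and 8 lower, where 7.82% of all rows were higher and 10.4% lower. In the Gal83-deletion library 4 were higher and 5 lower, where 10.6% of all rows were higher and 11.0% lower. Adhesin genes are often repetitive and similar to each other, so reads may be shared among these rows.

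Enzymes that build the cell wall went both ways, with 5 of 38 rows higher and 4 lower (3 and 8 with total counts). The higher rows included 3 neighbours in the table that make and remodel beta-1,3-glucan, the main fibre of the wall. A row for the glucan synthase component FKS1 (gene237) had 5928 scaled counts in the Gcn5-deletion library and 2601 in the wild type. A more abundant row with the same description (gene2776) stood at log2 -0.21, and the most abundant of the 3, a glucan synthase catalytic subunit (gene2330), at 0.10, so neither passed the size rule. The glucanosyltransferases gene238 and gene239, which share a description, were at log2 1.95 and 1.98, and at -1.28 and -0.95 in the Mxr1-labelled library. A component of the RIM101 pathway, which signals ambient pH (gene2985), was also higher, at 1.34. The lower rows were cell wall protein TIR3 (gene4825, -1.30), an endo-beta-glucanase (gene5372, -1.33), an O-glycosylated protein needed for wall stability (gene5087, -1.39) and an enzyme that joins chitin to glucan (gene628, -1.52).

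Rows for mating type were raised. A silenced ALPHA2 copy (gene4439), which encodes a mating-type repressor in Saccharomyces cerevisiae, had 883 scaled counts in the Gcn5-deletion library, 38.2 in the Mxr1-labelled, 77.8 in the Gal83-deletion and 38.3 in the wild-type library. The log2 ratio was 4.51 [4.13 to 4.94]. The row before it, mating-type protein MAT-1 (gene4438), had 1008 scaled counts in the Gcn5-deletion library, 125 in the Mxr1-labelled, 263 in the Gal83-deletion and 199.7 in the wild-type library. Both had their highest value in the Gcn5-deletion library. The receptor for the pheromone alpha factor (gene5294) was higher too, with 582 scaled counts in the Gcn5-deletion library and 269 in the wild type. Its log2 ratio was 1.11, and 0.79 with total counts. Mating factor alpha 1 (gene2227) was at -0.30, and the a-factor receptor rows gene3406 and gene3407 were at -0.03 and -0.44. None of these passed the size rule. Of all 35 rows for mating, meiosis and sporulation 6 were higher and 1 lower (3 higher with total counts), with a median of 0.16. A meiotic sister chromatid recombination protein (gene2853) was at log2 1.61, and the lower row was sporulation-specific protein 22 (gene3078), at -1.03. The inhibitor FAR1 (gene259), which halts the cell cycle in response to pheromone in Saccharomyces cerevisiae, had 1685 scaled counts in the Gcn5-deletion library and 596 in the wild type, and is counted with the cell cycle rows below.

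**Figure D3:**
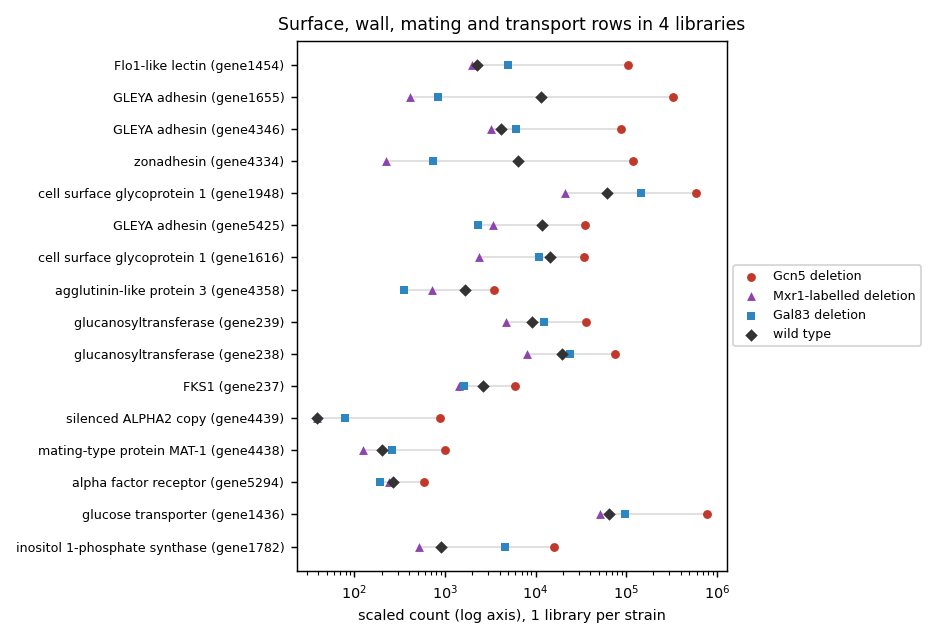
Scaled counts of 16 rows in each of the 4 libraries, on a log axis, with 1 point per library. The Gcn5-deletion library (red circles) lies above the other 3 libraries in each of these rows, for example at 105673 against 2248 in the wild type for the Flo1-like lectin. The rows were chosen with their values known, so their shared order is not a separate result.

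Several rows for sugar uptake and for inositol were higher. Of 16 rows for sugar, glycerol and inositol transport 4 were higher and 1 lower (3 and 2 with total counts). A high-affinity glucose transporter (gene1436) had 784728 scaled counts in the Gcn5-deletion library, 51277 in the Mxr1-labelled, 96748 in the Gal83-deletion and 65460 in the wild-type library, although the medium held methanol as carbon source. Only 2 described rows gained more scaled counts. Inositol 1-phosphate synthase (gene1782), which makes the first precursor of inositol, had 16175 scaled counts in the Gcn5-deletion library and 897 in the wild type, and a myo-inositol transporter (gene2523) had 53661 and 23486 in the same libraries. The transporter stood at log2 1.19, and at 0.87 with total counts. A less abundant row with the same description (gene2522) was at -0.71. The lower row was a glycerol proton symporter (gene4776, -1.29). A more abundant row with the symporter's description (gene3135) was at 0.65, so the symporter rows parted.

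Of 23 enzymes of ethanol, acetate and carnitine metabolism 7 were higher and 0 lower (4 and 2 with total counts). Among the higher rows was an alcohol dehydrogenase-like row (gene2541), with 1053992 scaled counts in the Gcn5-deletion library, 1128102 in the Mxr1-labelled, 155738 in the Gal83-deletion and 231971 in the wild-type library. Its level in the Gcn5-deletion library was close to that in the Mxr1-labelled one. Pyruvate decarboxylase, which opens the route to ethanol (gene4154), had 308202 scaled counts in the Gcn5-deletion library and 104872 in the wild type, against log2 -2.06 in the Mxr1-labelled library. Acetyl-coenzyme A synthetase 2, which activates acetate (gene3907), was at 1.40, against 5.72 in the Mxr1-labelled library.

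Within glycolysis the direction depended on the enzyme. Of 16 rows 3 were higher and 2 lower, and with total counts 0 were higher and 5 lower. Glyceraldehyde-3-phosphate dehydrogenase (gene2579) had 464047 scaled counts in the Gcn5-deletion library and 212908 in the wild type, and phosphoglycerate kinase (gene1130), the next enzyme of the pathway, had 154681 and 72214 in the same libraries. Class II fructose-bisphosphate aldolase is present as a pair of rows with near-identical descriptions. One of them (gene386) had 225898 scaled counts in the Gcn5-deletion library, 81959 in the Mxr1-labelled, 34902 in the Gal83-deletion and 98198 in the wild-type library. The other (gene655) had 23699 in the Gcn5-deletion, 1372 in the Mxr1-labelled, 19572 in the Gal83-deletion and 95056 in the wild-type library. The pair thus moved in opposite directions, with gene386 at log2 1.20, and at 0.88 with total counts. Fructose-1,6-bisphosphatase (gene3397), a gluconeogenic enzyme, was also lower, at -1.70.

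In the citric acid and glyoxylate cycles 3 of 13 rows were higher and 1 lower (1 and 2 with total counts). Isocitrate dehydrogenase gene2422 had 4587 scaled counts in the Gcn5-deletion library, 1977 in the Mxr1-labelled, 448 in the Gal83-deletion and 1228 in the wild-type library. A more abundant isocitrate dehydrogenase row (gene563), with 10224 scaled counts in the wild type, was at log2 -0.17. Phosphoenolpyruvate carboxykinase (gene1609), which starts gluconeogenesis from oxaloacetate, was at log2 1.29, and at 0.96 with total counts. The malate synthase rows parted, with malate synthase 2 (gene5220) at 1.01, or 0.68 with total counts, and malate synthase G (gene1316) at -1.46. Of 66 respiratory chain and ATP synthase subunits 1 was lower, cytochrome c oxidase polypeptide 5A (gene3685, -1.07), but 53 of the 66 ratios were below 0 and the median was -0.29. With total counts 7 of the 66 were lower. Alternative oxidase, which passes electrons to oxygen without pumping protons (gene3901), had 10087 scaled counts in the Gcn5-deletion library, 6162 in the Mxr1-labelled, 133757 in the Gal83-deletion and 46064 in the wild-type library.

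Alcohol oxidase and dihydroxyacetone synthase were lower. Of 7 methanol rows 3 were lower and 0 higher (5 lower with total counts), with a median of -0.98, against -2.42 in the Mxr1-labelled and -1.86 in the Gal83-deletion library. Alcohol oxidase (gene4497) had 241441 scaled counts in the Gcn5-deletion library, 9185 in the Mxr1-labelled, 79368 in the Gal83-deletion and 898438 in the wild-type library. Dihydroxyacetone synthase (gene3440) was the most abundant row of the wild-type library, and had 591407 scaled counts in the Gcn5-deletion library against 1166676 in the wild type, just short of 2-fold. The less abundant rows of both enzymes were called, alcohol oxidase gene5263 at -1.80 and dihydroxyacetone synthase gene3442 at -1.28. Because the paired rows have near-identical descriptions, counting may have split their reads. Catalase, which removes the hydrogen peroxide that alcohol oxidase makes (gene1803), had 360866 scaled counts in the Gcn5-deletion library, 53820 in the Mxr1-labelled, 227452 in the Gal83-deletion and 273117 in the wild-type library. Neither catalase, at 0.40, nor the formaldehyde-oxidising dehydrogenase (gene3220, -0.39), passed the size rule.

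Among the 25 lowest described rows were 3 for enzymes of sugar phosphate rearrangement, and this pathway was not collected as a list. Ribose-5-phosphate isomerase (gene5198) had 2960 scaled counts in the Gcn5-deletion library, 2595 in the Mxr1-labelled, 5693 in the Gal83-deletion and 17713 in the wild-type library. Transaldolase was present as adjacent rows, gene2050 and gene2049, and both were lower. The more abundant, gene2050, had 6936 scaled counts in the Gcn5-deletion library, 5779 in the Mxr1-labelled, 6655 in the Gal83-deletion and 33791 in the wild-type library. For gene2050 the 3 deletion libraries lay close together and below the wild type.

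Many genes for building peroxisomes were lower. Of 28 rows 12 were lower and 0 higher, with a median of -0.73, against -0.39 in the Mxr1-labelled and -0.29 in the Gal83-deletion library. Peroxins that import proteins were among them. The receptor for the targeting signal PTS1 (gene1871) had 12244 scaled counts in the Gcn5-deletion library, 13089 in the Mxr1-labelled, 22757 in the Gal83-deletion and 46731 in the wild-type library. The RING-finger peroxins biogenesis factor 2 (gene4324) and biogenesis factor 10 (gene1441), which act on that receptor, were at -1.72 and -1.42. Biogenesis factor 3 (gene3170), needed to place membrane proteins, had 3505 scaled counts in the Gcn5-deletion library and 9918 in the wild type. Membrane protein 11A, which elongates peroxisomes before they divide (gene2507), and inheritance protein 1, which holds them in the mother cell (gene4984), were the lowest, at -2.38 and -2.15.

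Glutathione transferase gene2233 and cytochrome c peroxidase gene1799, enzymes of oxidative defence, were lower at -1.70 and -1.62. The peroxidase had 20048 scaled counts in the Gcn5-deletion library, 16525 in the Mxr1-labelled, 151215 in the Gal83-deletion and 61830 in the wild-type library, the order seen for alternative oxidase. Of all 34 rows for oxidative defence 3 were lower and 2 higher, with a median of 0.09. A row with a glutathione transferase-like domain outside this list (gene3172) was the lowest after Gcn5, with 6428 scaled counts in the Gcn5-deletion library, 7258 in the Mxr1-labelled, 24147 in the Gal83-deletion and 144296 in the wild-type library. It closed a run of 5 neighbouring rows that were all lower, which also held the peroxin gene3170 and the exosome protein LRP1 (gene3171, -1.01).

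Sulfur assimilation was lower along the path that reduces sulfate. Of 12 rows 7 were lower and 0 higher, and the median was -1.04. Sulfate adenylyltransferase, which activates sulfate (gene1086), had 3076 scaled counts in the Gcn5-deletion library, 1831 in the Mxr1-labelled, 3746 in the Gal83-deletion and 14044 in the wild-type library. Phosphoadenosine phosphosulfate reductase (gene4205), the enzyme of a later step, was at -1.02 [-1.10 to -0.93]. Both subunits of sulfite reductase were lower, the alpha-component (gene5014) at -2.11 and the beta subunit (gene3151) at -1.79. The steps to methionine followed, with homocysteine S-methyltransferase (gene4678) at -1.56 and cobalamin-independent methionine synthase (gene2890) at -1.07. The plasma membrane sulfite pump (gene1972) had 3194 scaled counts in the Gcn5-deletion library, 16815 in the Mxr1-labelled, 8198 in the Gal83-deletion and 9350 in the wild-type library, and was the member lower than in each of the other 3 libraries by at least 2-fold. The sulfate permeases did not pass the size rule, at -0.77 for gene3816 and 0.87 for gene1022. Cystathionine gamma-synthase (gene2229) was at 0.75. In the Mxr1-labelled library 7 of the 12 rows were lower and 1 higher (median -1.55), and in the Gal83-deletion library 5 were lower and 1 higher (median -0.93).

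Several enzymes that make riboflavin, thiamine and vitamin B6, precursors of cofactors, were lower as well. Alcohol oxidase carries a flavin and dihydroxyacetone synthase uses thiamine diphosphate. Of 18 rows 6 were lower and 0 higher (10 lower with total counts), with a median of -0.82. In riboflavin synthesis, 3,4-dihydroxy-2-butanone 4-phosphate synthase (gene4182) had 627 scaled counts in the Gcn5-deletion library, 1415 in the Mxr1-labelled, 4757 in the Gal83-deletion and 4538 in the wild-type library. GTP cyclohydrolase II (gene2246), which opens the other branch of the same pathway, was at -1.19. In thiamine synthesis, thiazole synthase (gene3647) had 14069 scaled counts in the Gcn5-deletion library, 9979 in the Mxr1-labelled, 58696 in the Gal83-deletion and 35851 in the wild-type library, and a row similar to hydroxymethylpyrimidine phosphate kinases (gene957) was at -1.80. For vitamin B6, the SOR/SNZ family protein (gene1241) was at -2.72 and pyridoxine phosphate oxidase (gene797) at -1.11. In the Gal83-deletion library 1 of the 18 rows was lower and 2 were higher, with a median of -0.22, and in the Mxr1-labelled library 8 were lower and 1 higher, with a median of -0.91.

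**Figure D4:**
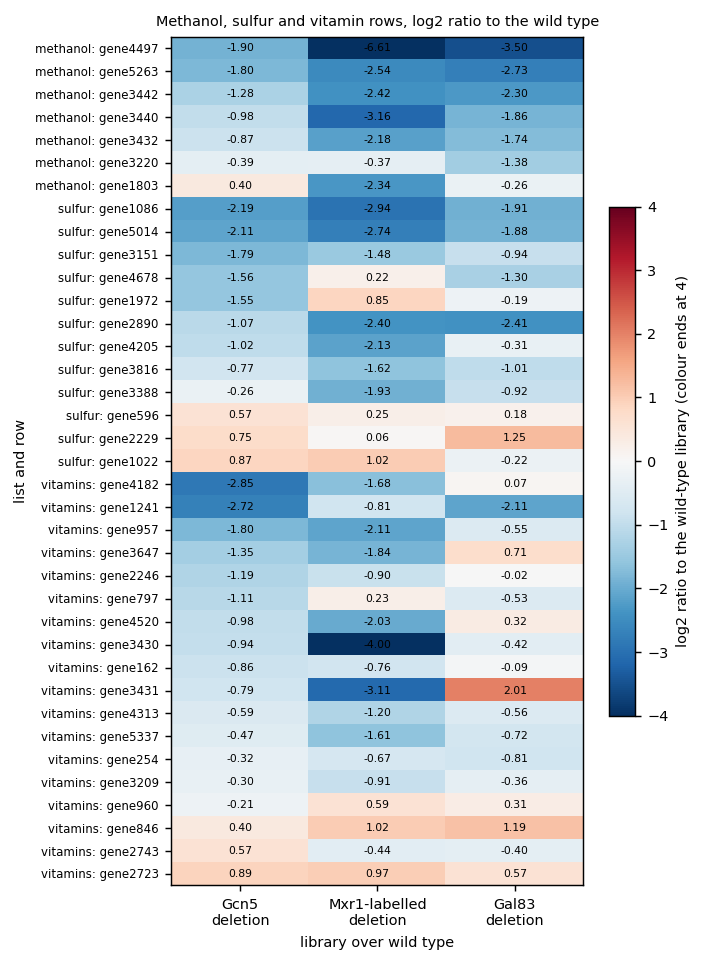
Colours and printed values are log2 ratios to the wild-type library for all 37 rows of the methanol, sulfur and vitamin lists, with the Gcn5 deletion in the left column, and each list is ordered by that column. In the left column 16 of the 37 rows are lower by at least 2-fold and 0 are higher, and the lowest value is -2.85.

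Of 16 ergosterol and isoprenoid rows 3 were lower and 0 higher (5 lower with total counts). Farnesyl pyrophosphate synthase, at the branch point to sterols (gene1155), had 3154 scaled counts in the Gcn5-deletion library, 2372 in the Mxr1-labelled, 4506 in the Gal83-deletion and 19256 in the wild-type library. The C-5 sterol desaturase (gene1215) had 17891 in the Gcn5-deletion, 39455 in the Mxr1-labelled, 35527 in the Gal83-deletion and 39506 in the wild-type library, so that only the Gcn5-deletion library differed by 2-fold or more. Lanosterol 14-alpha-demethylase (gene3296) was at -1.04. Iron and copper uptake was mixed, with 2 of 17 rows higher and 1 lower, where 4.00% of all rows were higher and 5.11% lower. The lower row was the high-affinity iron permease (gene852), with 4348 scaled counts in the Gcn5-deletion library and 14005 in the wild type. A ferrioxamine B transporter (gene4010), a siderophore carrier, was higher at 1.46. A more abundant row with the same description (gene3047) was at 0.07, and siderophore iron transporter 1 (gene3632) at -0.09. Neither passed the size rule.

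Of 38 rows for uptake or export of amino acids, ammonium and urea 12 were lower and 4 higher (13 and 1 with total counts). A proline permease (gene2332) had 1184 scaled counts in the Gcn5-deletion library, 6740 in the Mxr1-labelled, 24400 in the Gal83-deletion and 7042 in the wild-type library. It was at least 4-fold below each of the other libraries. Another proline permease row (gene2920) was at -0.13. The ammonium transporters MEP2 (gene1243) and MEP3 (gene2102) were at -1.98 and -1.32, and were lower also in the Mxr1-labelled library, at -3.36 and -2.47. Arginine permease rows gene1473 and gene1640 were at -1.49 and -1.30, and gene1640 was at 3.85 in the Mxr1-labelled library. A further arginine permease row (gene679) was at 0.49. Adjacent rows for ammonia export parted, with gene764 at -2.34 and gene765 at 1.08. The permeases AGP1 (gene2343) and AGP2 (gene3425) were higher, at 1.35 and 1.16. Another row described as AGP1 (gene3010) was at 0.34.

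Amino acid synthesis had 4 of 35 rows lower and 2 higher (6 and 1 with total counts). Over all rows compared 5.11% were lower and 4.00% higher. Chorismate mutase, which commits to phenylalanine and tyrosine (gene5370), had 3478 scaled counts in the Gcn5-deletion library and 11924 in the wild type. Homocitrate synthase, the entry to lysine (gene1275), had 20920 in the Gcn5-deletion, 98593 in the Mxr1-labelled, 90474 in the Gal83-deletion and 43751 in the wild-type library, lower than in each of the others. A row for the regulatory subunit of acetolactate synthase, for branched-chain amino acids (gene214), was higher at 1.95. Another row with the same description (gene2424) was at -0.27, and a likely regulatory subunit of the same enzyme (gene2423) at -0.35. Glutamine synthetase (gene4540), which fixes ammonia, was at 1.20, and at 0.88 with total counts.

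Ribosome biogenesis genes were shifted upward as a group, mostly by less than 2-fold. Of 73 rows 64 had ratios above 0, 5 were higher and 0 lower (2 higher with total counts), and the median was 0.46. A constituent of 66S pre-ribosomes (gene4267) had 17779 scaled counts in the Gcn5-deletion library, 15983 in the Mxr1-labelled, 3265 in the Gal83-deletion and 4284 in the wild-type library. The nucleolar GTP-binding protein 2 (gene4945), which acts in maturation of the large subunit, was at 1.43. The rRNA-processing protein EFG1 (gene600) was at 1.18, and the U3 small nucleolar RNA-associated protein 10 (gene1702) at 1.08. The proteins of the cytosolic ribosome themselves did not follow. Of 84 rows 74 had ratios below 0, 1 was lower and 0 higher, and the median was -0.22, against -0.57 in the Mxr1-labelled and -1.79 in the Gal83-deletion library. Of these rows 0 had counts within 5% of a neighbouring row's in all 4 libraries. Sequences were not compared, so whether any of these rows share reads was not tested.

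Several other housekeeping groups had no called rows, where 9.11% of all rows were called in either direction. For the groups of 8 to 13 rows, having no calls lies near that share. None of 51 mitochondrial ribosomal proteins (median 0.12), 30 translation factors (median 0.28), 13 aminoacyl-tRNA synthetases (median 0.06), 32 proteasome subunits (median 0.00), 8 trehalose and glycogen enzymes (median 0.04) or 11 ER translocation and oligosaccharyltransferase rows (median 0.17) was called in either direction (2 mitochondrial ribosomal proteins were lower with total counts). Proteasome subunits had the narrowest spread of these groups save the ER rows, from -0.44 to 0.44. Of 25 rows for RNA polymerases I and III 1 was higher, subunit RPC9 of RNA polymerase III (gene3196, 1.25). Another 1 was lower, a subunit of the initiation factor of the same enzyme (gene5005, -1.40). These counts are near the shares of all rows, 4.00% higher and 5.11% lower. With total counts 0 of the polymerase rows were higher and 4 lower.

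**Figure D5:**
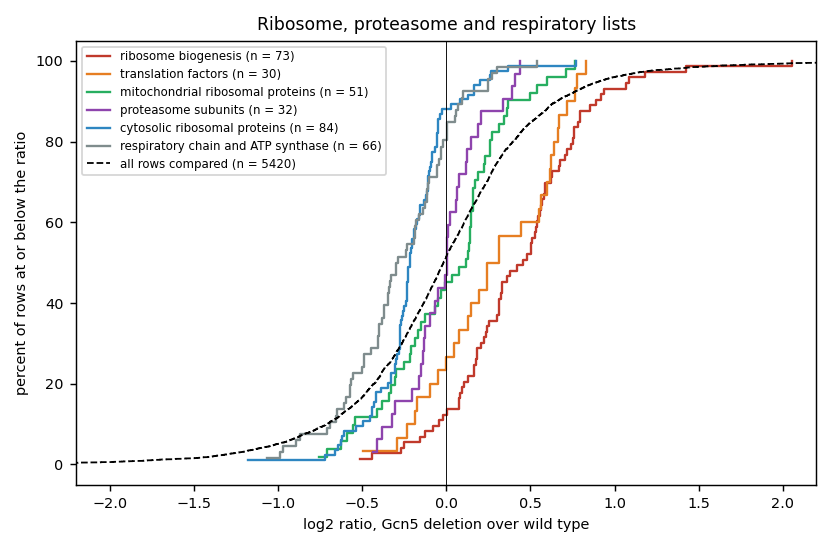
Cumulative percentage of rows at or below each log2 ratio of the Gcn5-deletion library over the wild type, for 6 gene lists and, dashed, all 5420 rows. The curve for ribosome biogenesis lies to the right, with a median of 0.46, that of proteasome subunits is centred at 0.00, and those of cytosolic ribosomal proteins and the respiratory chain lie to the left, with medians of -0.22 and -0.29.

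A few abundant chaperones were higher. Ssa3p (gene4104), an Hsp70 in Saccharomyces cerevisiae, was the most abundant row of the Gcn5-deletion library and gained the most scaled counts of all described rows. It had 1622938 scaled counts in the Gcn5-deletion library, 197527 in the Mxr1-labelled, 358296 in the Gal83-deletion and 572724 in the wild-type library. The Hsp90-like row (gene946) had 552102 in the Gcn5-deletion, 150554 in the Mxr1-labelled, 106154 in the Gal83-deletion and 209771 in the wild-type library. Heat shock protein 9/12 (gene4715), a small stress protein of the membrane, was at log2 2.84. Of the 38 listed chaperones, which do not include gene4104, 4 were higher and 1 lower (2 and 3 with total counts), and the median was 0.14. The co-chaperones gene855 and gene1830 were at 1.12 and 1.09, and both were under 2-fold with total counts, at 0.80 and 0.77. Another abundant row, the delta-9 fatty acid desaturase, which makes unsaturated fatty acids (gene2986), had 696312 scaled counts in the Gcn5-deletion library, 544558 in the Mxr1-labelled, 158932 in the Gal83-deletion and 212734 in the wild-type library. The 20 highest rows of each library held 29.7% of the counts in the Gcn5-deletion library and 21.6% in the wild type.

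Proteases were lower more often than higher, 5 against 2 of 25 rows, with a median of -0.36. Vacuolar proteinase B (gene1413) had 3820 scaled counts in the Gcn5-deletion library and 9566 in the wild type. A papain-like cysteine protease row (gene5264), which follows alcohol oxidase gene5263 in the table, was at -1.54, against -6.04 in the Mxr1-labelled library. One of the zinc metalloprotease rows was lower (gene3819, -1.66) and another higher (gene4795, 1.38). Of 17 autophagy rows 1 was lower, a row described as the kinase atg1 (gene2354, -1.24). A more abundant row described as ATG1 (gene2351) had 7765 scaled counts in the Gcn5-deletion library and 8446 in the wild type. At log2 -0.12 it did not pass the size rule.

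Cell cycle rows gave 3 lower and 1 higher of 44, with a median of -0.27 (10 lower with total counts). Over all rows compared 5.11% were lower and 4.00% higher, and the small group counts here were not tested against these shares. A cyclin that partners the kinase Pho85 (gene419) had 2353 scaled counts in the Gcn5-deletion library, 61318 in the Mxr1-labelled, 49329 in the Gal83-deletion and 9750 in the wild-type library. The other lower rows were a member of the MIND kinetochore complex (gene3581, -1.34) and a kinetochore domain row (gene1342, -1.10). Of 46 rows for DNA replication and repair 4 were lower and 1 higher. A DNA polymerase alpha-associated helicase (gene538) was at -1.44 and the GINS subunit PSF2 (gene1046), part of the replicative helicase, at -1.36. Of 75 zinc cluster and zinc finger factors 5 were lower and 1 higher (15 lower with total counts), led by a C6 transcription factor (gene9, -1.75). Outside that list, a row for a Zn(2)-C6 fungal-type DNA-binding protein (gene5151) was among the highest, with 54396 scaled counts in the Gcn5-deletion library, 3457 in the Mxr1-labelled, 14737 in the Gal83-deletion and 7812 in the wild-type library. A homeodomain repressor of the peptide transporter gene PTR2 (gene3713) was at 2.18, and at 2.50 in the Gal83-deletion library.

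Some rows set the Gcn5-deletion library apart from all 3 others by 2-fold or more. Of 5420 rows 86 were above all the others, 1.59%, and 51 were below, 0.941% (45 and 100 with total counts). The upper set was led by the adhesins, and also held the AP-3 complex subunit delta (gene1437), of transport to the vacuole, and uricase (gene1975), which oxidises uric acid. For gene1437 the scaled counts were 3578 in the Gcn5-deletion, 951 in the Mxr1-labelled, 880 in the Gal83-deletion and 887 in the wild-type library, so the other libraries lay close together. This row is numbered next to the far more abundant glucose transporter gene1436, and whether they share reads was not tested. Uricase had 23730 in the Gcn5-deletion, 6482 in the Mxr1-labelled, 5463 in the Gal83-deletion and 5711 in the wild-type library. After Gcn5 itself, the lower set was led by an aspartate aminotransferase-like row (gene5269), with 1183 in the Gcn5-deletion, 88519 in the Mxr1-labelled, 27201 in the Gal83-deletion and 8987 in the wild-type library. Gamma-butyrobetaine dioxygenase, which makes carnitine (gene1242), had 6292 in the Gcn5-deletion, 163373 in the Mxr1-labelled, 41496 in the Gal83-deletion and 24895 in the wild-type library. GTP cyclohydrolase URC1, of uracil breakdown (gene1137), had 7794 in the Gcn5-deletion, 85290 in the Mxr1-labelled, 82036 in the Gal83-deletion and 30552 in the wild-type library. In these rows the Gcn5 deletion and the other deletions lay on opposite sides of the wild type. A protein of Vid vesicles, which carry gluconeogenic enzymes to the vacuole (gene5373), had 1252 in the Gcn5-deletion, 14179 in the Mxr1-labelled, 7076 in the Gal83-deletion and 8992 in the wild-type library.

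The filter of 20 lies among rows with few counts. Just below it, gene4011 had 26 counts in the Gcn5-deletion and 9 in the wild-type library, and gene2773 had 9 and 43. Just above it, gene1064 had 8 counts in the Gcn5-deletion and 32 in the wild-type library, and gene2866 had 18 and 23. Strandedness is not stated, so reads of overlapping rows on opposite strands cannot be told apart.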

How the data were processed

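RNA was measured in 4 libraries, 1 per strain, after 14 h on methanol. The table deposited by the authors holds whole-number counts of reads per row, with no normalization. Per the labels' protocols, ribosomal RNA was depleted with a kit made for bacteria. The submitters' processing notes name featureCounts 1.6.4, fastp 0.19.6, DESeq2, Bowtie2 and bcl2fastq 2.19.0.316 without their roles. The genome build, its annotation and the strandedness of counting are not given in the sources used here. Names come from the table's product descriptions, because 0 of its locus tags matched the reference gene table, which is of another strain.

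Rows averaging 20 counts or more across the 4 libraries were kept, and 7 were removed. Median-of-ratios size factors were 0.752 in the library of the Gcn5 deletion, 0.838 in the Mxr1-labelled library, 1.04 in that of the Gal83 deletion and 1.49 in the wild type. Ratios used 0.5 added to each scaled count. Intervals are exact Clopper-Pearson 95% intervals of the pair's counts, and cover counting error only, since no molecular identifiers are recorded and PCR copies would count as separate molecules. With 1 library per group no test was made. The calculation was tested on simulated counts. The computation used matplotlib 3.10.9, scipy 1.17.1, pandas 2.3.3 and numpy 2.4.6 under Python 3.11.15, with edgeR 4.0.16 in R 4.3.3 for TMM factors.

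The comparison and the 37 gene lists were chosen with earlier results of these data known, and list patterns on the descriptions were refined after the table was seen. By rule, rows open to naming were the Gcn5 row, the 25 highest and 25 lowest described rows, and list members past the size rule (up to 8 a list). All members of lists of up to 12 were open too, as were the 15 described rows in each direction farthest from all other libraries. So were the 15 described rows with the largest differences in scaled counts, and the rows beside the filter. The text names only part of these rows. Among the highest, 14 rows without a description were passed over, and among the lowest 3. Further rows were named outside this rule, chosen after their values were seen. They are gene161, gene237, gene765, gene1360, gene1640, gene2330, gene2776, gene3102, gene3104, gene3171, gene3425, gene4358 and gene4986 to gene4989. Others have like descriptions or functions to named rows, namely gene563, gene679, gene2227, gene2351, gene2423, gene2424, gene2522, gene2920, gene3010, gene3135, gene3406 and gene3407. The same holds for gene1227, gene1452, gene1631, gene2042, gene2898, gene3047, gene3557, gene3632, gene3950, gene4994 and gene5420. Alternatives were other scalings, filters, added counts and fold rules, and protein-coding rows apart from neighbours with counts within 5%.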

Additional observations from a re-analysis of the deposited data

How the results depend on the processing

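With total counts, 111 rows were higher and 588 lower, and higher rows made up 15.9% of the calls in place of 43.9%. Rows that set the Gcn5-deletion library apart from all others became 45 above and 100 below, and the alternatives for these rows were chosen after seeing the data. At 1.5-fold 676 rows were higher and 740 lower, and at 3-fold 71 and 75. The other scalings, the filters, 5 added to each scaled count and the restriction to protein-coding rows apart from their neighbours gave 207 to 224 higher and 267 to 283 lower rows. The log2 ratio of the Gcn5 row ran from -8.89 to -7.59 over its alternatives. Of 220 rows carried through the alternatives, not all of them named in the text, 27 called as higher were under 2-fold with total counts. With upper-quartile factors 2 of these were also under 2-fold, namely gene1375 and gene5220. Of the 176 carried-through rows called as higher or lower none changed sign in these alternatives, while 14 of the 44 not called did with total counts. The median of the SAGA and ADA list was -0.62 with the Gcn5 row and -0.38 without it, an alternative chosen after seeing the data. The cause of the shift with total counts was not tested. No paired analysis was possible because each strain had 1 library and no replicate numbers are shared. Depth limited only rows with low counts, such as the 3 counts of Gcn5 in its deletion library.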

Other observations

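Rows at the beginning and end of the 4 locus-tag series of the table were called more often than the rest, a pattern chosen after the values were seen. In the comparison of the Gcn5 deletion with the wild type, of 79 rows among the first or last 10 of a series, 18 were higher and 8 lower, with a median log2 ratio of 0.28. Of the 5341 rows further in, 199 were higher and 269 lower, with a median of -0.02. The adhesin rows gene1655 and gene5425 and the hexose transporter gene1 lie in such stretches. The table holds no coordinates, so whether these rows lie near chromosome ends was not tested.

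Called rows also came in runs of neighbours. There were 7 runs of at least 3 adjacent higher rows, with 23 rows, and 10 runs of lower rows, with 34 rows. Some hold rows of like function, such as the 3 glucan rows gene237 to gene239, while others mix functions, such as gene1241 of vitamin B6, gene1242 of carnitine and the ammonium transporter gene1243, at log2 -2.72, -1.98 and -1.98. A run of 4 rows (gene4986 to gene4989) includes rows whose counts lie within 5% of a neighbour's, which may be the same reads counted more than once.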
